A study of Mus musculus with 2 samples.

Results

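A group of 5 genes linked to which beta-type globin a red cell makes was examined: Bcl11a, Zbtb7a, Sox6, Myb and Hbs1l. Hbs1l is linked by its place beside Myb. The 5 are among the 21938 protein-coding genes of GENCODE vM21 on the mouse chromosomes used. They were taken by name, and the rule uses no measured value, although earlier results of these data were known when the group was chosen. For each gene the DNase I hypersensitive peaks within 1 kb of any of its annotated transcript starts, called start peaks here, and within 100 kb of its gene body were taken from the longer peak list of each library. This gave 92 of 47198 peaks in replicate 1 and 75 of 36523 in replicate 2. The windows of Myb and Hbs1l overlap, and a peak in both was counted once in these totals.

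DNase-seq reads the ends of DNA that the nuclease DNase I frees from nuclei, so a peak marks a stretch of open chromatin. The 2 libraries are biological replicates of 1 group: whole liver of mouse embryos at 13.5 days, strain C57BL/6N,129, with the labels LCR deletion and HET globin mutation. Both libraries come from separate biosamples that carry 1 donor identifier, sex was not collected, and both libraries carry the same genotype label. No source used here says how far the deletion reaches, what the globin label means or which genotype a single embryo had. The series has no unaltered control group here, so nothing below compares a mutant with a normal liver and no test between conditions was possible. Nor does any say whether a biosample was 1 embryo or a pool. In a whole tissue, fewer cells with an open site and a less open site in each cell cannot be told apart.

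In mammals the beta-like globin genes are used in turn, embryonic forms first and adult forms later. BCL11A and ZBTB7A (also called LRF) are zinc finger repressors that bind at the embryonic and fetal globin genes and recruit the NuRD complex, a nucleosome remodeller with histone deacetylases. SOX6 is an HMG box factor that acts with BCL11A in silencing the embryonic globins in mice. MYB is needed to expand definitive red cell precursors and acts upstream of the switch, and its neighbour Hbs1l, which encodes a GTPase of ribosome rescue, lies across an interval that holds distal enhancers of Myb in erythroid cells. In Bcl11a the erythroid enhancer known from human red cell precursors lies in the second intron.

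The sequences on which the results turn are printed first, from the RefSeq copy of GRCm38, whose chromosome lengths match the mm10 build of the files. Each distal window is the central 200 bases of a replicate 1 peak on the plus strand, and the Myb and Hbs1l windows are the parts of their start peaks upstream of the outermost start, on the strand of the gene. All are written 5′ to 3′, and capitals mark bases inside a footprint of replicate 1, a short stretch that the authors listed as protected from cleavage. The first 3 are the intronic Bcl11a peaks seen in both libraries and, chosen after its values were seen, another intronic peak listed in replicate 1 alone. They are followed by the highest and the most unequal shared peaks of the Myb to Hbs1l interval, the highest shared distal peaks of Sox6 and Zbtb7a, and the upstream part of the Hbs1l and Myb start peaks.
Bcl11a second intron, 51.8 kb from the start, chr11:24129801-24130000: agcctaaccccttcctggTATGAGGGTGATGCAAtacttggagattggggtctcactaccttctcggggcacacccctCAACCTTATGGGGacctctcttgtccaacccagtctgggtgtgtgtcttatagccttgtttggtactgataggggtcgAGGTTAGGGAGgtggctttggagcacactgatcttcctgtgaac
Bcl11a first intron, 3.9 kb from the start, chr11:24081897-24082096: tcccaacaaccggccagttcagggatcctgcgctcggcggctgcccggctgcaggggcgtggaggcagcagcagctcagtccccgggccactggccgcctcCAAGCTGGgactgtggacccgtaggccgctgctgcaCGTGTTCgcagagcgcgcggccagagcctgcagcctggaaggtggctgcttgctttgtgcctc
Bcl11a second intron, 58.2 kb from the start, replicate 1 alone, chr11:24136137-24136336: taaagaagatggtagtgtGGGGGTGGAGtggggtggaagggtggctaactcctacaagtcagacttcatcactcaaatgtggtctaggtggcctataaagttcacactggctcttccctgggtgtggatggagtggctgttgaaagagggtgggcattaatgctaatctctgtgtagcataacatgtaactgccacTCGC
35.8 kb upstream of Myb, chr10:21196701-21196900: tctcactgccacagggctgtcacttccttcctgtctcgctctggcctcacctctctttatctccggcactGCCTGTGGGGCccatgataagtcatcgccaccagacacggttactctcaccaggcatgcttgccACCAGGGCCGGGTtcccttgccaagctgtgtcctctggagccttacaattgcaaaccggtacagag
108.0 kb upstream of Myb, chr10:21268851-21269050: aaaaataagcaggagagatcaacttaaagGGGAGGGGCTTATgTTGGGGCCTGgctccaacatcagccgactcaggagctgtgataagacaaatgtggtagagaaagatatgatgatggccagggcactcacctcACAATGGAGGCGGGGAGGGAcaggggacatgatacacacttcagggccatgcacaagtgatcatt
Sox6, chr7:115844541-115844740: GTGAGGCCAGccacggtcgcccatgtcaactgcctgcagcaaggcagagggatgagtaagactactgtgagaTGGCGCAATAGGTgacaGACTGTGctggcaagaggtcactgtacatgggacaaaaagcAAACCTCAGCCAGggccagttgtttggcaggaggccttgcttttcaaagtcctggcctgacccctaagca
Downstream of Zbtb7a, chr10:81175101-81175300: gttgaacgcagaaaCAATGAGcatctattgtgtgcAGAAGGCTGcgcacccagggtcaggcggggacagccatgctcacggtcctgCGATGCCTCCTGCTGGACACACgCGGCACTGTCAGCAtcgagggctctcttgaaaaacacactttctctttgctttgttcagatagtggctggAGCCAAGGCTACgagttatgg
Hbs1l upstream window, plus strand, chr10:21295901-21295978: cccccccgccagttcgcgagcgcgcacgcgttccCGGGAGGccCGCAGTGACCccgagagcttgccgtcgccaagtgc
Myb upstream window, minus strand, chr10:21160985-21161120: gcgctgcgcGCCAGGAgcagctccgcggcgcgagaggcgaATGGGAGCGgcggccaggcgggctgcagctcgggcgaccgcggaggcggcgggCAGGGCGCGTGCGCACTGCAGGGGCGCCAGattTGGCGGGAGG

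All 5 genes had at least 1 start peak in both libraries. In the shorter peak lists, and in the upper 50% of peaks by value, 4 did, without Sox6. Over all protein-coding genes 54.1% did so, 58.5% in replicate 1 and 55.4% in replicate 2. The genes differed widely in how high those peaks were. Peak values are the cleavage signal as the authors normalised it for depth. In each library the values are whole multiples of 1 step, and with 1 step read as 1 sequenced read, which is an assumption, a 95% Poisson interval covers the counting error of a peak.

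Zbtb7a had the highest start peak of the 5, with 22.6 (21.6 to 23.6) in replicate 1 and 10.2 (9.44 to 10.9) in replicate 2. Among the genes with a start peak in both libraries these values lie at percentiles 98.0 and 99.1. Next was Hbs1l, at 7.84 (7.24 to 8.47) and 4.35 (3.88 to 4.86), at percentiles 62.6 and 59.5. The medians of all genes open in both were 5.79 and 3.67, so Zbtb7a and Hbs1l lay above the median in each library and the other 3 genes below it.

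Myb reached 4.0 (3.58 to 4.46) in replicate 1 and 2.19 (1.86 to 2.56) in replicate 2, at percentiles 36.6 and 28.2. The highest start peak of Bcl11a was 1.89 (1.6 to 2.21) in replicate 1 and 1.58 (1.30 to 1.90) in replicate 2, at percentiles 18.1 and 19.9. Sox6 was lowest with 1.18 (0.958 to 1.44) and 1.39 (1.13 to 1.69), at percentiles 10.6 and 17.0. For Bcl11a and Sox6 the highest start peaks of the libraries were different peaks. The order Zbtb7a, Hbs1l, Myb, Bcl11a, Sox6 was the same in both libraries. Bcl11a and Sox6 are neighbours in that order whose intervals overlap in replicate 2 and do not overlap in replicate 1, and all other neighbours have separate intervals in replicate 1. In replicate 2 the intervals of Myb (1.86 to 2.56) and Bcl11a (1.30 to 1.90) also touch.

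**Figure D1:**
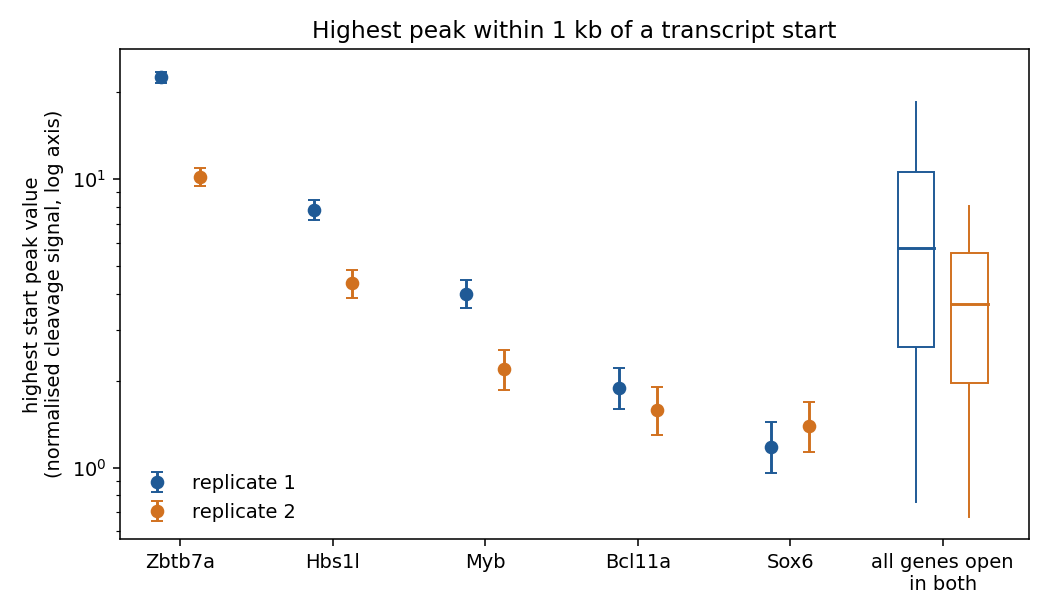
Highest start peak of each gene in replicates 1 and 2 (points, with 95% Poisson intervals that assume 1 value step is 1 read), on a log axis, beside all genes with a start peak in both libraries (box, middle 50%; line, median; whiskers, 5th to 95th percentile). Zbtb7a stands at 22.6 and 10.2, near the top of all genes, and Sox6 at 1.18 and 1.39, near the bottom.

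The number of listed start peaks did not follow their height. Bcl11a had 10 start peaks in each library, spread over 6 annotated start positions, and none of them exceeded 1.89. Sox6 had 11 in replicate 1 and 2 in replicate 2 over 13 start positions, Zbtb7a had 7 and 9 over 6 positions, Myb had 3 and 2, and Hbs1l had 1 in each. Of the start peaks of replicate 1, those with an overlap in replicate 2 were 7 of 7 for Zbtb7a, 9 of 10 for Bcl11a, 2 of 3 for Myb, 1 of 1 for Hbs1l and 3 of 11 for Sox6. Over all genes 77.8% of the peaks of replicate 1 within 1 kb of a start did so. Listed peaks of 1 library can overlap one another, so these counts are not counts of separate open stretches. In replicate 1 this holds for chr11:24076741-24077160 and chr11:24076861-24077420, among others at Bcl11a. At Sox6 it holds for chr7:116030721-116031140 and chr7:116030881-116031400.

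The Bcl11a gene (ENSMUSG00000000861.15) occupies chr11:24078056-24174123 on the plus strand, and its window held 19 peaks in replicate 1 and 16 in replicate 2. Most of them formed one low, wide block around the first exon. The start peak at chr11:24077901-24078120 covered the outermost start, with 1.89 in replicate 1, and its partner in replicate 2 had 1.18 (0.941 to 1.46). The highest peak of the block, 3.35 (2.97 to 3.77) and 2.08 (1.76 to 2.44), lay 1.6 kb upstream, at the start of Gm12063, a neighbouring non-coding gene, and not at a start of Bcl11a. The block thus ran across the starts of both genes, and its peaks cannot be assigned to one of them where they overlap.

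Within the introns of Bcl11a, away from every start, 5 peaks were listed in replicate 1 and 3 in replicate 2, over 88.5 kb of intron. In the coding transcript from the outermost start, the first intron (chr11:24078446-24085320, 6.88 kb) held the shared site 3.9 kb into the gene, with 1.23 (1.00 to 1.5) in replicate 1 and 1.51 (1.24 to 1.82) in replicate 2. The other intronic peaks all lay in the second intron, chr11:24085651-24158252, which spans 72.6 kb. Its highest site was shared: chr11:24129621-24130180, 51.8 kb from the start, with 2.55 (2.22 to 2.92) in replicate 1. Replicate 2 listed 2 adjoining peaks over this stretch, with 1.25 (1.00 to 1.53) and 1.51 (1.24 to 1.82). This site stood above the peak at the outermost Bcl11a start in both libraries, with intervals that are separate in replicate 1 and overlap in replicate 2. It was wide, 560 bases in replicate 1.

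The other 3 peaks of the second intron were in replicate 1 alone, at 22.6, 50.1 and 58.2 kb from the start. Their values were 0.973 (0.771 to 1.21), 0.961 (0.760 to 1.2) and 1.22 (0.991 to 1.49). None had a stretch under the deposited false discovery rate limit of 0.05 in replicate 2 and none held a footprint there. The peak at 58.2 kb was the strongest of these, with a lowest rate of 1.01e-04 and 3 footprints in replicate 1, and of them it was also the only one in the shorter peak list of replicate 1. With those inside peaks counted, 17 stretches of Bcl11a intron lay under the limit in replicate 1 and 16 in replicate 2. Only 5 and 2 of them lay outside any peak of that library, and the longest of those measured 27 and 6 bases.

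**Figure D2:**
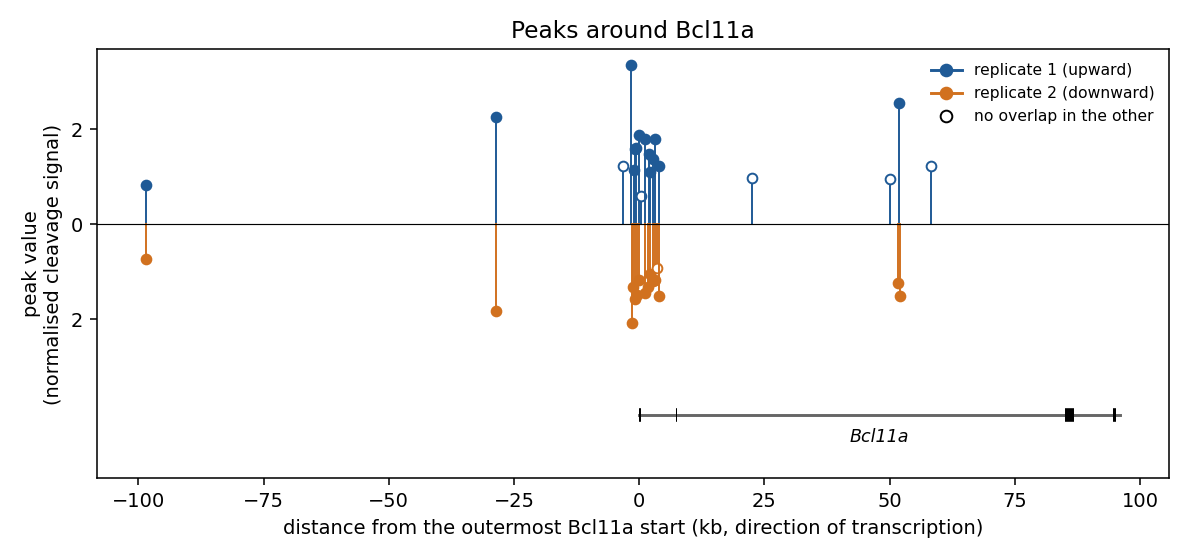
Peak values around Bcl11a by distance from its outermost start, replicate 1 upward and replicate 2 downward; filled points overlap a peak of the other library, open points do not, and the bar shows the exons of the coding transcript. The shared intronic site 51.8 kb from the start stands at 2.55 in replicate 1, and the 3 open points of replicate 1 in the second intron lie between 0.961 and 1.22.

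In the window printed for the 51.8 kb site, replicate 1 had 3 footprints covering 40 bases and replicate 2 had none, although the whole peak held 6 footprints in replicate 1, and replicate 2 listed 4 footprints over the same stretch. A GATA match, TGATAG, lay at positions 145 to 150 of that window, counted from 1 at its 5′ end, and was outside every footprint of both libraries even after each was widened by 5 bases on both sides. The window of the 3.9 kb site held a KLF match, CCACGCCC, on the minus strand at positions 55 to 62. It ran into a footprint of replicate 2 at positions 47 to 56. A SOX match there, ACAAAG on the minus strand, was outside the footprints of both libraries. At the 58.2 kb site the window held a KLF match, CCACACCC, on the minus strand and a MYB match, TAACTG. The last bases of the MYB match lay within 5 bases of a footprint of replicate 1. A GATA match here means GATA after A or T and before A or G, on either strand. A KLF match means CCACACCC with A or G at the third and the fifth letter, and a MYB match means TAACGG or TAACTG. Of the 11583 windows of 200 bases at distal peaks of replicate 1 that overlap replicate 2, those more than 1 kb from any start, 35.5% held a GATA match, 9.79% a KLF match and 9.38% a MYB match. The 58.2 kb peak, listed in replicate 1 alone, is not in that set, so these shares are not a like background for it.

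Upstream of Bcl11a, beyond the block at its first exon, few peaks were listed in its 100 kb flank. A shared peak 28.6 kb upstream, chr11:24049341-24049500, overlapped an exon of the non-coding gene A830031A19Rik and had 2.27 (1.95 to 2.62) and 1.83 (1.53 to 2.17). Another, 98.5 kb upstream, was weak, with 0.838 (0.651 to 1.06) and 0.735 (0.550 to 0.961). No peak of either library lay between 58.2 kb from the start and the downstream edge of the window, as the map of peaks around Bcl11a shows.

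From Myb to Hbs1l the 2 genes point away from each other, with 135 kb between their outermost starts (chr10:21160984 and chr10:21295979). Away from all starts this interval held 5 peaks in replicate 1 and 3 in replicate 2, and all 3 peaks of replicate 2 overlapped one of replicate 1. The site nearest Myb was the highest in both libraries: chr10:21196701-21196900, 35.8 kb upstream of the Myb start, with 4.81 (4.34 to 5.31) in replicate 1 and 2.23 (1.90 to 2.60) in replicate 2. The Myb start peak itself had 4.0 and 2.19, and the intervals of the distal site and the start overlap in both libraries.

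The next site of the interval, 67.7 kb upstream, lay in an intron of the non-coding gene Gm33728 in GENCODE and had 1.80 (1.52 to 2.12) and 1.25 (1.00 to 1.53). In RefSeq its central window overlaps an exon. The one at 108.0 kb upstream of Myb, 27.0 kb from the Hbs1l start, measured 2.94 (2.58 to 3.34) in replicate 1 but 0.984 (0.769 to 1.24) in replicate 2, where the peak was not in the shorter list. Between these, replicate 1 alone listed weak peaks 93.7 and 104.4 kb upstream, with 1.01 (0.804 to 1.25) and 0.752 (0.575 to 0.966), and replicate 2 had no stretch under the false discovery rate limit at either. Replicate 2 alone had a peak of 0.915 (0.708 to 1.16) 28.2 kb upstream of Myb, at the start of Gm40608, which the count above leaves out because it lies at a start. In each library 1 stretch of the interval under the limit lay outside any peak, of 2 bases in replicate 1 and 8 in replicate 2. Bases not under the limit are not thereby shown to be closed.

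**Figure D3:**
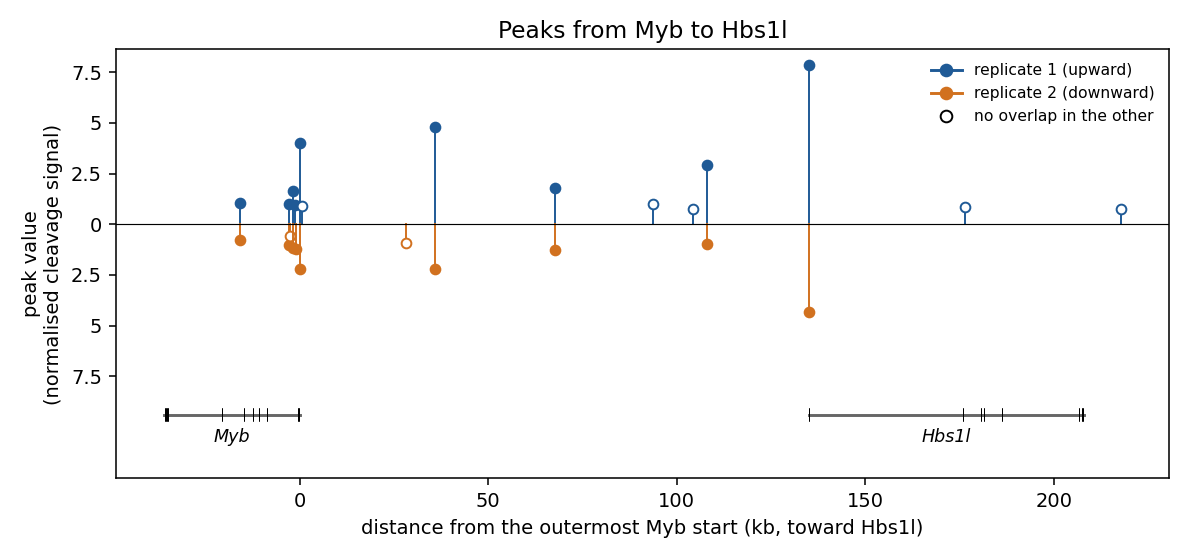
Peak values from Myb to Hbs1l by distance from the outermost Myb start toward Hbs1l, replicate 1 upward and replicate 2 downward; filled points overlap a peak of the other library, open points do not, and bars show the exons of a coding transcript of each gene. Between the starts, the 3 shared sites at 35.8, 67.7 and 108.0 kb stand at 4.81, 1.80 and 2.94 in replicate 1 and at 2.23, 1.25 and 0.984 in replicate 2.

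All 3 shared sites of the interval carried a GATA match in their central window. At the 35.8 kb site one of them, TGATAA at positions 85 to 90, stood 9 bases after the triplet CTG, the arrangement of an E-box remnant and a GATA site, spelled here as CTG, 7 to 9 of any base, then AGATAA or TGATAA on either strand. The whole match, CTGTGGGGCCCATGATAA at positions 73 to 90, lay partly under a footprint of replicate 1 at positions 71 to 81, and it ended within 5 bases of a footprint of replicate 2 at positions 94 to 102. Its letters TGATAA at positions 85 to 90 lay outside the listed footprints of both libraries and met them only when each was widened by 5 bases. A further GATA match on the minus strand, AGATAA at positions 57 to 62, ran into a footprint of replicate 2 at positions 60 to 66. The spaced CTG and GATA match occurred in 7.36% of all shared distal windows. At the 108.0 kb site the GATA match, TGATAA at positions 82 to 87, was outside the footprints of both libraries, and a SOX match, ACAATG at positions 136 to 141, opened a footprint of replicate 1 that ran to position 155. SOX matches, ACAATG or ACAAAG on either strand, occurred in 18.7% of all shared distal windows.

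The outermost start of Myb (ENSMUSG00000019982.15, chr10:21124935-21160984, minus strand) lay under a peak of 220 bases in replicate 1 and of 700 bases in replicate 2. Its upstream window was GC-rich, 79.4% G or C, and replicate 1 placed 4 footprints in it that cover 56 of 136 bases. Replicate 2 placed 3 there, and all 21 of their bases in the window fell inside those of replicate 1. The longest footprint of replicate 1, positions 94 to 123, covered the letters GCGCGTGCGC at positions 98 to 107, a match to the NRF1 motif (GCGC, any base, TGCGC), and a footprint of replicate 2 lay beside it at positions 109 to 116. Among upstream windows of the same length at all protein-coding genes, 3.89% held that match. Those windows were not limited to open starts or to windows as GC-rich as that of Myb.

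Downstream of its first start, Myb had intronic peaks at 1.1, 1.8 and 2.7 kb that both libraries shared. The peak at 1.8 kb had 1.64 (1.37 to 1.94) and 1.18 (0.941 to 1.46), the one at 2.7 kb had 1.01 (0.804 to 1.25) and 1.01 (0.793 to 1.27), and the start peak at 1.1 kb had 0.924 (0.727 to 1.16) and 1.21 (0.966 to 1.49). This last peak was among the few that were higher in replicate 2. The first intron of Myb is known as a place where transcription is attenuated. Further downstream, a shared peak 15.9 kb from the start, at a start of the non-coding gene Gm26577, had 1.06 (0.848 to 1.31) and 0.776 (0.586 to 1.01). Past the end of the gene, in Ahi1, a shared peak 132.6 kb away had 1.04 (0.826 to 1.28) and 0.859 (0.659 to 1.1), and one 106.0 kb away, 1.42 (1.17 to 1.70), was listed in replicate 1 alone.

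Hbs1l (ENSMUSG00000019977.16, chr10:21295979-21368898, plus strand) had a single start peak in each library. Its gene body held 1 more peak, 41.4 kb from the start with 0.838 (0.651 to 1.06), in replicate 1 alone. The upstream window, 75.6% G or C, held 2 footprints of replicate 1 and 1 of replicate 2, and 10 of the 12 footprint bases of replicate 2 were shared. None of the motifs searched had a match in those 78 bases. Past its end, a peak in Aldh8a1 82.8 kb from the Hbs1l start, with 0.739 (0.564 to 0.952), was also in replicate 1 alone, and a shared peak 169.6 kb from its start was weak, with 0.739 (0.564 to 0.952) and 0.610 (0.443 to 0.819).

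Sox6 (ENSMUSG00000051910.13, chr7:115470872-116038796, minus strand) spans 568 kb, and its window held 23 peaks in replicate 1 and 12 in replicate 2. Most of the peaks that replicate 2 lacked lay at its upstream starts. Of the 11 start peaks of replicate 1, 8 had no overlap in replicate 2, with values from 0.431 to 1.1, and none of these 8 had a stretch under the false discovery rate limit in replicate 2. Those at chr7:116039409-116039460 and chr7:116039721-116040000 lay upstream of Sox6, 12 and 9 bases from a start of the neighbouring gene 1110004F10Rik. They cannot be assigned to Sox6 alone. Among all peaks of replicate 1 with values from 0.431 to 1.1, 41.7% had an overlap in replicate 2. The 8 were picked for having none and the range was taken from them, so that share is no test of them. Sox6 start peaks of 0.702 and 0.912 in replicate 1 lie in the same range and were shared. At the outermost start, chr7:116038621-116038818, replicate 1 had 0.739 (0.564 to 0.952) with a lowest rate of 3.49e-04, and replicate 2 listed nothing.

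Other peaks among the upstream starts of Sox6 were higher in replicate 2. At chr7:116031681-116031960, 7.0 kb inside the gene and beside the start of the antisense transcript Sox6os, replicate 2 was the higher one, with 1.39 (1.13 to 1.69) against 0.912 (0.716 to 1.14). The neighbouring peak at chr7:116032321-116032380, at the start region of Sox6os, had 1.11 (0.879 to 1.38) in replicate 2 against 0.752 (0.575 to 0.966) in replicate 1. DNase-seq has no strand, so signal here cannot be assigned to Sox6 or Sox6os.

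Inside Sox6, 4 shared distal sites lay between 96.8 and 207.6 kb from its outermost start. The highest by mean rank, chr7:115844501-115844780, 194.2 kb from that start and close to internal starts of Sox6, was as high in replicate 2 as in replicate 1, with 2.00 (1.68 to 2.35) and 1.96 (1.67 to 2.29), and it overlaps an exon of a non-coding Sox6 transcript. The site at 96.8 kb had 2.17 (1.86 to 2.51) and 1.12 (0.892 to 1.40), and the site at 143.6 kb had 1.64 (1.37 to 1.94) and 0.887 (0.683 to 1.13). The site at 207.6 kb had 1.32 (1.08 to 1.59) and 1.26 (1.02 to 1.55). Another, 585.2 kb from the start and beyond the end of the gene, had 1.11 (0.892 to 1.36) and 0.901 (0.695 to 1.15). GATA matches were present in the central windows of 3 of these 5 sites, those at 96.8, 143.6 and 207.6 kb, and those at 143.6 and 207.6 kb also had the spaced CTG and GATA match. Inside the gene, weak distal peaks seen in 1 library lay 1.5, 150.0 and 432.0 kb from the start in replicate 1 and 488.2 kb from it in replicate 2, with values from 0.431 to 0.653. The printed window of the highest site held none of the motifs searched. Its footprint at positions 131 to 143 in replicate 1 lay wholly inside one of replicate 2 at 131 to 148.

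**Figure D4:**
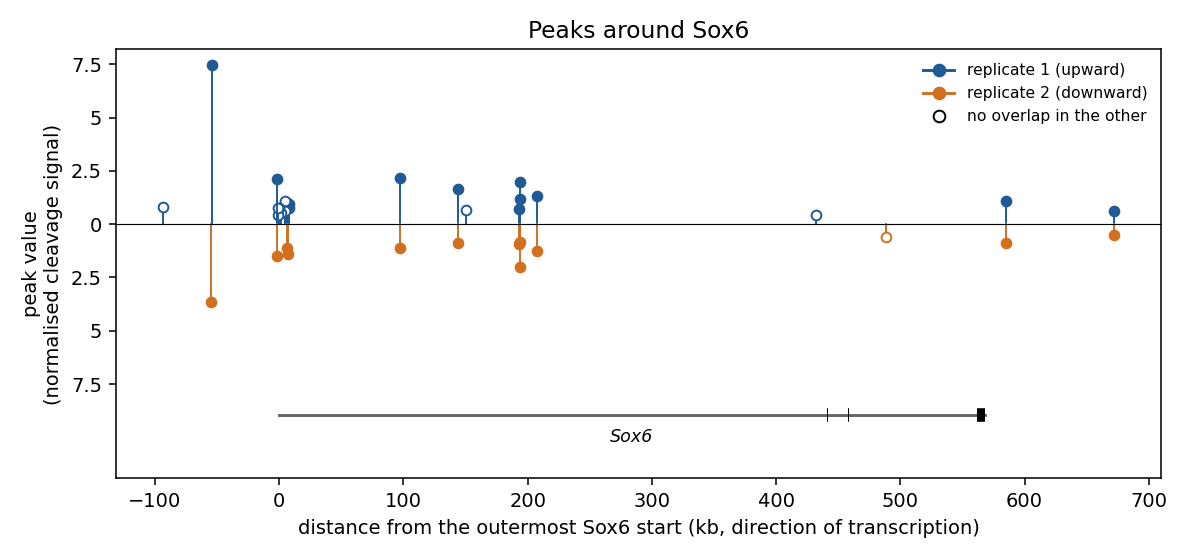
Peak values around Sox6 by distance from its outermost start in the direction of transcription, replicate 1 upward and replicate 2 downward; filled points overlap a peak of the other library, open points do not, and the bar shows exons of a coding transcript. Most open points near 0 kb are start peaks seen in replicate 1 alone, some of them nearest a start of 1110004F10Rik, and the one at 1.5 kb is an intronic peak over 1 kb from any start. The distal sites inside the gene at 96.8, 143.6, 194.2 and 207.6 kb are filled in both; the tallest point, upstream of Sox6, is at starts of neighbouring genes that include 1110004F10Rik.

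Zbtb7a (ENSMUSG00000035011.15, chr10:81135220-81152995, plus strand) lies among 13 other protein-coding genes with starts in its window, so its 33 and 34 peaks include many at the starts of other genes. Its own start peaks formed a block from 0.8 kb upstream to 3.2 kb downstream of the outermost start. The highest, chr10:81137341-81137600, lay 2.2 kb downstream of the outermost start and 353 bases from the nearest annotated start of the gene, and it held 8 footprints in replicate 1 and its partner held 5 in replicate 2. The next highest had 6.05 (5.53 to 6.61) and 3.09 (2.70 to 3.52), and 4.98 (4.50 to 5.49) and 3.91 (3.47 to 4.39). Every start peak of replicate 1 had a partner in replicate 2, and replicate 2 added peaks of 1.22 (0.978 to 1.5) and 1.29 (1.04 to 1.58).

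The shared distal sites in the Zbtb7a window were 6, and the 5 highest by mean rank had 4.02 and 2.99, 2.94 and 2.68, 2.50 and 1.46, 1.90 and 1.23, and 1.75 and 1.14 in replicates 1 and 2. The first of them, chr10:81175101-81175300, lies 40.0 kb downstream of the Zbtb7a start but only 1331 bases from a start of Eef2, the translation elongation factor gene. A CTCF match (CCA, 2 of any base, AG, 2 of any base, GGC), which read CCAGCAGGAGGC on the minus strand, at positions 91 to 102 of the printed window, lay wholly under a footprint of replicate 1 at positions 87 to 108 and partly under one of replicate 2 at 83 to 100. Of all shared distal windows 26.3% held such a match.

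Around the 5 genes, 63 of the 92 peaks in replicate 1 were shared with replicate 2, 68.5% with an exact binomial interval of 58.0% to 77.8%, against 64.4% of all peaks. The other way 64 of 75 did so, 85.3% against 82.3% of all peaks. The interval for replicate 1 includes the value of all peaks. It treats neighbouring peaks of 5 genes, some of which overlap, as independent draws, so it cannot decide whether they depart from the genome. The mix of peaks also differs: 36 of the 92 were distal, against 48.8% of all peaks of replicate 1. Over the genome 50.3% of distal peaks and 77.8% of those within 1 kb of a start were shared. Of the 29 peaks in replicate 1 alone, 3 had a stretch under the false discovery rate limit in replicate 2, and of the 11 in replicate 2 alone, 2 had one in replicate 1. Over the genome these shares were 15.6% and 24%.

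Peaks that were each other's best overlap were paired, 61 pairs near these genes. The value was lower in replicate 2 in 51 of 61 pairs, and in 82.8% of all 28959 pairs. The median log2 ratio of replicate 2 to replicate 1 was -0.61, from -1.58 to 0.60, against -0.47 over all pairs. Since the ratio depends on peak height throughout the genome, the median ratio of the 501 pairs nearest in height was taken off, and what is left is called the excess. Its median near these genes was -0.07. Beyond the 5th percentile of all pairs (-0.69) lay 3 pairs, and beyond the 95th (0.67) another 3.

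The pair that departed most was the site 108.0 kb upstream of Myb, with a log2 ratio of -1.58 and an excess of -1.21, at percentile 0.3 of all pairs. It was also the lowest ratio of the 61. The other low pairs were at the starts of Sgta and Map2k2 in the Zbtb7a window, each with an excess of -0.74. The high ones were the peaks beside the Sox6os start, with 0.90 and 0.88, and the Myb start peak at 1.1 kb, with 0.68. The Myb site at 35.8 kb had an excess of -0.52, at percentile 10.4, and the Bcl11a site at 51.8 kb one of -0.31, at percentile 22.5. The start peak of Hbs1l had -0.08, and the 7 paired start peaks of Zbtb7a ran from -0.46 to 0.44, with 0.17 at the peak of highest value.

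**Figure D5:**
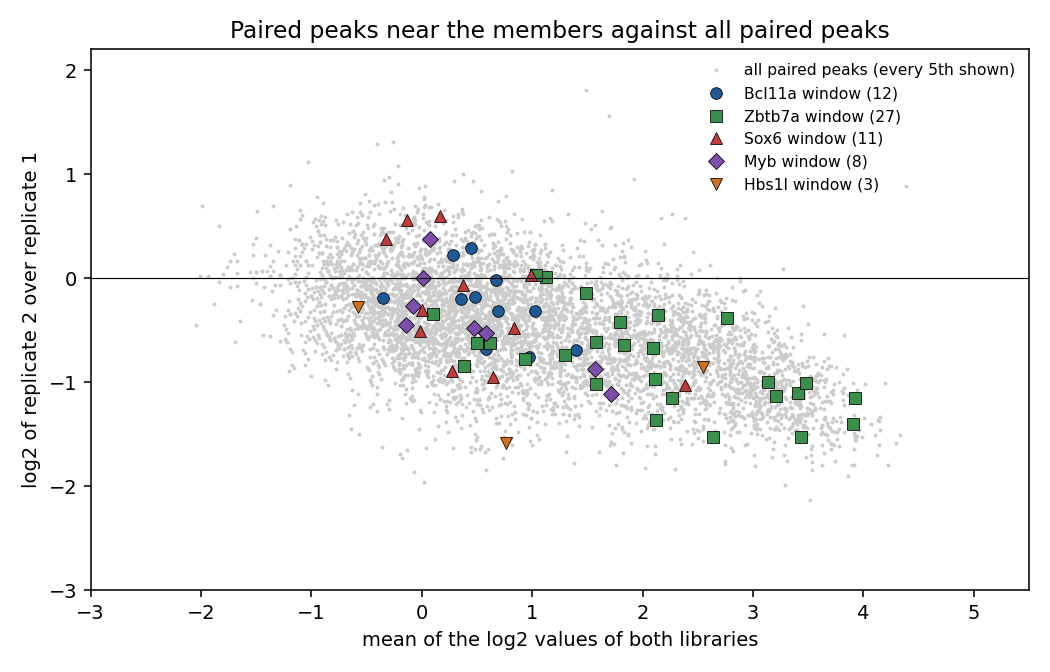
Log2 ratio of replicate 2 to replicate 1 against the mean log2 value of both libraries, for the 61 paired peaks near the genes (coloured, by the first window that holds them) and every 5th paired peak of the genome (grey). The Hbs1l window point at -1.58 is the site 108.0 kb upstream of Myb, which lies at the lower edge of the grey cloud at its height; most others lie inside it.

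A footprint was listed in both libraries in 53 of the 61 pairs, 86.9% with an exact binomial interval of 75.8% to 94.2%, against 76.1% of all pairs, a value just inside that interval. Distal peaks were 36 of the 92 in replicate 1 (48.8% of all peaks of that library are distal) and 28 of the 75 in replicate 2 (40.8% of all). Of the 36, 22 overlapped replicate 2, against 50.3% of all distal peaks of replicate 1. Each of the 5 genes had at least 1 shared distal site within 100 kb, as did 68.2% of all protein-coding genes. By gene window the shared distal sites were 4 for Bcl11a, 6 for Zbtb7a, 5 for Sox6, 5 for Myb and 4 for Hbs1l, against a median of 1 and a mean of 2.16 over all protein-coding genes. Windows of these genes differ in length, from 218 kb for Zbtb7a to 768 kb for Sox6, and this count was not adjusted for it. In the 22 shared distal windows GATA matches were found in 12, which is 54.5% with an exact interval of 32.2% to 75.6%, against 35.5% of all shared distal windows, which lies inside that interval. A BCL11A match, TGACCA on either strand, was in 5 of the 22, 22.7% (7.82% to 45.4%) against 12.3%. SOX matches were in 6, 27.3% (10.7% to 50.2%) against 18.7%, and CTCF matches in 5, 22.7% against 26.3%. KLF matches were in 2, 9.09% against 9.79%, and MYB matches in 0 of 22, which allows up to 15.4%, against 9.38%. The intervals given for BCL11A and SOX include the share of all windows. All intervals of these shares treat neighbouring peaks as independent draws and are descriptions. A match of letters is not a bound site.

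The partners of these regulators were almost all open at their starts. Of 14 subunits of NuRD and partner corepressors, 13 had a start peak in both libraries, among them Gatad2a (30.8 and 10.1), Mbd3 (21.8 and 8.30) and Rcor1 (20.8 and 8.03), and Mta1 had one in replicate 2 alone. In a separate list of genes known to act in globin switching, all 16 were open in both. The highest start peaks there were at Nr2c2 (26.2 and 10.6), Dnmt1 (14.4 and 6.40) and Atf4 (9.81 and 6.49). Among 9 paralogs of the 5 genes 6 were open in both, among them Mybl2 (15.5 and 5.92), Gspt1 (14.6 and 6.32) and Zbtb7b (13.2 and 5.27), while Bcl11b, the lymphoid and neural paralog of Bcl11a, had no start peak in either library. These counts stand beside the 54.1% of all protein-coding genes.

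Markers of the cells a liver of this age may hold were read the same way. Of 10 erythroid genes 9 were open in both libraries, with Tfrc at 18.1 and 7.46, Epor at 15.3 and 6.39 and Sptb at 7.70 and 4.99. Of 8 hepatoblast genes 2 were, Foxa3 and Afp, and the hepatocyte genes Alb and Apoa2 had no start peak in either library. None of 6 macrophage and myeloid genes was open, and 2 of 6 lymphoid, 1 of 5 megakaryocyte, 1 of 5 endothelial, 1 of 5 mesenchymal and 3 of 4 neuronal genes were. Bcl11a and Sox6 are also used in lymphoid, neural and cartilage cells, whose part in the open sites was not tested. Of the neuronal genes Snap25 had 1.11 and 1.12, Rbfox3 1.1 and 0.499 and Syn1 1.05 and 0.776, and Gad1 had no start peak in either library. Of the lymphoid genes Pax5 had 2.96 and 2.07 and Ebf1 2.49 and 1.39, and Cd79a and Cd3e had none. Of the mesenchymal and chondrogenic genes Col1a1 had 2.42 and 1.40, and Col1a2, Acta2 and Col2a1 had none.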

How the data were processed

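The 2 DNase-seq libraries form 1 group. Per the labels, files are on mm10. For each library the authors deposited 2 peak lists, footprints and a false discovery rate along the genome, made per library. No source used here gives the peak caller, the aligner or the thresholds. The deposited peak value is a depth-normalised cleavage signal, a whole multiple of 0.0123 in replicate 1 and 0.0139 in replicate 2 (largest departure 0.00408 and 0.00482 of a step). With 1 step read as 1 read, depth was 81.2 and 72.1 (times 1e6 reads) and a median peak held 100 and 90, and the intervals cover counting error only. No source used here says whether values of the 2 libraries are on 1 scale. The deposited false discovery rate, a p-value type (q-value) column listed under 0.05, was used to mark stretches. The deposited footprint score is a constant, 0.01, so only positions were used.

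The members, lists and motifs were chosen with earlier results of these data known. Transcript starts came from GENCODE vM21. Peaks were called shared from 1 base of overlap. Distal means over 1 kb from any start, non-coding genes included. Named were the 5 genes, all peaks of the Bcl11a introns and of the interval between Myb and Hbs1l, the start peaks and 5 highest shared distal peaks of Sox6 and Zbtb7a, and from each list up to 3 genes with the highest start peaks and up to 3 without one, and others after their values were seen. Some genes that this rule names are not reported here. Python 3.11.15, NumPy 2.4.6 and SciPy 1.17.1 were used, and overlap, ratio, step and motif search were tested on simulated data. With 1 group no test between groups was run. Alternatives were the shorter lists, the upper 50% of peaks, other distances and overlaps, coding starts alone, whole footprints inside peaks and each library alone, plus merged overlapping peaks, added after seeing the data.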

Additional observations from a re-analysis of the deposited data

How the results depend on the processing

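The count of 5 genes with a start peak in both libraries was 5 under 500 or 2500 bases around starts, coding starts alone, each library alone and merged overlapping peaks, and 4, without Sox6, in the shorter lists and in the upper 50% of peaks. In the upper 50%, the peaks of replicate 1 near the genes numbered 52 instead of 92. With an overlap of 50% of both peaks asked for, 57.6% of them were shared instead of 68.5%. Each library alone gave 3 to 5 peaks in Bcl11a introns, against 2 shared, and 3 to 5 in the Myb to Hbs1l interval, against 3 shared. The shared count of the interval was 2 in the shorter lists and in the upper 50% of peaks. The median log2 ratio was -0.61 in the main setting and ran from -0.72 in the upper 50% of peaks to -0.48 within 50 kb of the genes. The footprint share was 86.9% in the main setting and ran from 85.1% within 50 kb to 93% in the shorter lists. No paired analysis was possible because the series has 1 group. With 2 libraries and about 100 reads in a median peak, sites valued below 1 are the least certain.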

Other observations

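Among the other 11867 genes with a start peak in both libraries, genes most alike to each of the 5 were found from 3 quantities, the highest start peak in each library and the number of shared distal peaks within 100 kb. Junb (8.01 and 4.35, 4 distal peaks) and Grk5 (7.60 and 4.30, 4 distal peaks) were nearest to Hbs1l. Nearest to Zbtb7a were Btrc (22.1 and 10, 6 distal peaks) and 1700123O20Rik (22.5 and 9.94, 6 distal peaks). Close to Myb was Mylk3 (3.84 and 2.26, 5 distal peaks). For Bcl11a these were Plxnc1 (1.91 and 1.64, 4 distal peaks) and Slc37a1 (1.80 and 1.58, 4 distal peaks). Sox6 had the least close matches, Prdm2 (1.06 and 1.44, 5 distal peaks) and Bmi1 (1.24 and 1.62, 5 distal peaks). The likeness is over 2 libraries and is a description.

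Along the Map2k2 gene, upstream of Zbtb7a, replicate 1 alone listed short peaks of 48, 139 and 123 bases that overlap exons, with 0.579, 0.530 and 0.456, and replicate 2 alone listed one of 76 bases with 0.665 that also overlaps an exon. None of these 4 held a footprint in either library, and their lowest false discovery rates ran from 1.28e-11 to 0.00119.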
